A study of Oryctolagus cuniculus with 6 samples.

Results

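The miR-17-92 cluster and its paralogues were followed by small RNA sequencing in hypertrophic scars of the rabbit ear. Rows of the deposited table were taken as members by name, without copy number and arm, where the name was miR-17, miR-18a, miR-18b, miR-19a, miR-19b, miR-20a, miR-20b, miR-92a, miR-92b, miR-106a, miR-106b, miR-93, miR-25 or miR-363. This gave 24 of 467 mature miRNA rows, from 13 hairpin names, and miR-92b was not analysed here. Among them are ocu-miR-93-5p, ocu-miR-25-3p and ocu-miR-363-3p, written below without the prefix for the rabbit. The libraries came from female New Zealand White rabbits wounded through the full skin thickness on the ventral ear surface, with tissue taken at day 21. The sources used here give neither the age of the animals nor any genetic modification. In 3 libraries the wounds had received saline, and in 3 they had received ADSC-Exos, the vesicles shed by adipose-derived stem cells, with 100 µg of them in 2 ml. The design text places these applications in the first 3 days, while the labels of the samples give 21 days of treatment, and neither says which rabbit each library came from. The p-values therefore measure the spread between these 6 samples, which may be partly technical. Both groups carried wounds, antibiotics and analgesics, and no unwounded skin was analysed here.

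The miR-17-92 cluster is a polycistron, a set of miRNA hairpins cut from a shared transcript, and MYC is a known activator of it in human cells. Its paralogues are miR-106a-363 on the X chromosome and miR-106b-25, which lies inside MCM7, a gene of DNA replication licensing. The mature miRNAs fall into 4 families by seed, the short stretch near the 5′ end that pairs with target transcripts. In human and mouse cells the miR-17 family restrains the cell cycle inhibitor CDKN1A and the TGF-β receptor TGFBR2. There too, miR-18a and miR-19 are known to lower the matrix-associated proteins CTGF and thrombospondin-1, and the miR-92 family restrains the cell death factor BIM. The RefSeq genes of rabbit assembly mOryCun1.1 hold the same 3 groups. MIR25, MIR93 and MIR106B lie within MCM7, MIR17 to MIR92A-1 form a group of 6, and MIR106A to MIR363 form another group of 6. The mature miR-19b and miR-92a rows without a copy number can come from either of the last 2 groups and were kept apart. Families were assigned from the known seeds of these names and were not checked against sequence.

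Values are CPM, the reads of a miRNA per 1000000 miRNA reads of its library. The steps between low values place the miRNA reads per library between about 2260645, in ADSC-Exos 1, and 5102405, in ADSC-Exos 3. At these totals 1 read was worth 0.196 to 0.442 CPM. A count of 0 allows up to 3 reads, or 0.588 to 1.33 CPM, and these limits cover counting error only. The sources used here do not say how reads that match several family members were assigned, so near-identical members such as miR-17-5p, miR-20a-5p, miR-20b-5p, miR-106a-5p, miR-106b-5p and miR-93-5p are uncertain to that extent. Adaptor ligation differs between miRNAs, so levels of different miRNAs are read here as levels in the library. Markers of scar fibroblasts, miR-199a and miR-214, summed to between 113480 and 164725 CPM in every library. Nearly all of this was miR-199a, as miR-214-3p measured 7.6 to 42.2 CPM and miR-214-5p 21.7 to 76.4 CPM. ADSC-Exos 1 stood apart in other tissue markers. Its cartilage miRNAs summed to 1461 CPM against 2110 to 7602 CPM in the other libraries, and its smooth muscle miRNAs to 14505 CPM against 38229 to 70397 CPM. Differences of members and of their family and named cluster sums are therefore also given without ADSC-Exos 1 where leaving it out moved them by over 1.5 times. Where 3 values of a group are listed, they are those of libraries 1, 2 and 3 in that order, which carries no known meaning.

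Among the members, the miR-106b-25 cluster supplied most of the reads. Its 6 rows held 79.8% to 90.6% of the summed CPM of all members in each library, and the members together held 0.796% to 2.12% of a library. miR-93-5p, the miR-17 family member of this cluster, was the most abundant. It measured 5689.5, 6881.9 and 7926.3 CPM in the saline libraries and 12039.5, 5791.7 and 3684.1 CPM in the ADSC-Exos libraries. The highest and the lowest value both belonged to the ADSC-Exos group, and the saline values lay between them. miR-25-3p, the miR-92 family member of the same cluster, had 5073.8, 5049.2 and 4743.7 CPM with saline, against 6818.9, 4997.8 and 2987.0 CPM with ADSC-Exos. Its saline libraries lay within a narrow range that the ADSC-Exos libraries again overlapped from both sides. miR-93-5p and miR-25-3p took places 21 and 26 among all 467 rows by mean CPM. miR-93-5p lay above miR-25-3p in 6 of 6 libraries, by a ratio of 1.12 to 1.77.

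The third hairpin of this cluster was far less abundant in these libraries. miR-106b-5p, which belongs to the miR-17 family with miR-93-5p, reached 20.9, 13.2 and 14.8 CPM after saline, while ADSC-Exos libraries had 15.5, 11.1 and 19.6 CPM. The ratio of miR-93-5p to miR-106b-5p ran from 188 in ADSC-Exos 3 to 777 in ADSC-Exos 1, although both hairpins lie in the same host gene. It was 443 ± 148 in saline and 495 ± 295 in ADSC-Exos (SD, n = 3 each), and the groups overlapped. The other arm, miR-106b-3p, measured 33.9, 20.9 and 12.3 CPM in the saline libraries and 17.7, 19.4 and 13.1 CPM in the ADSC-Exos libraries. Both arms of this hairpin were thus of similar level, with a 5p to 3p ratio of 0.572 to 1.50.

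**Figure D1:**
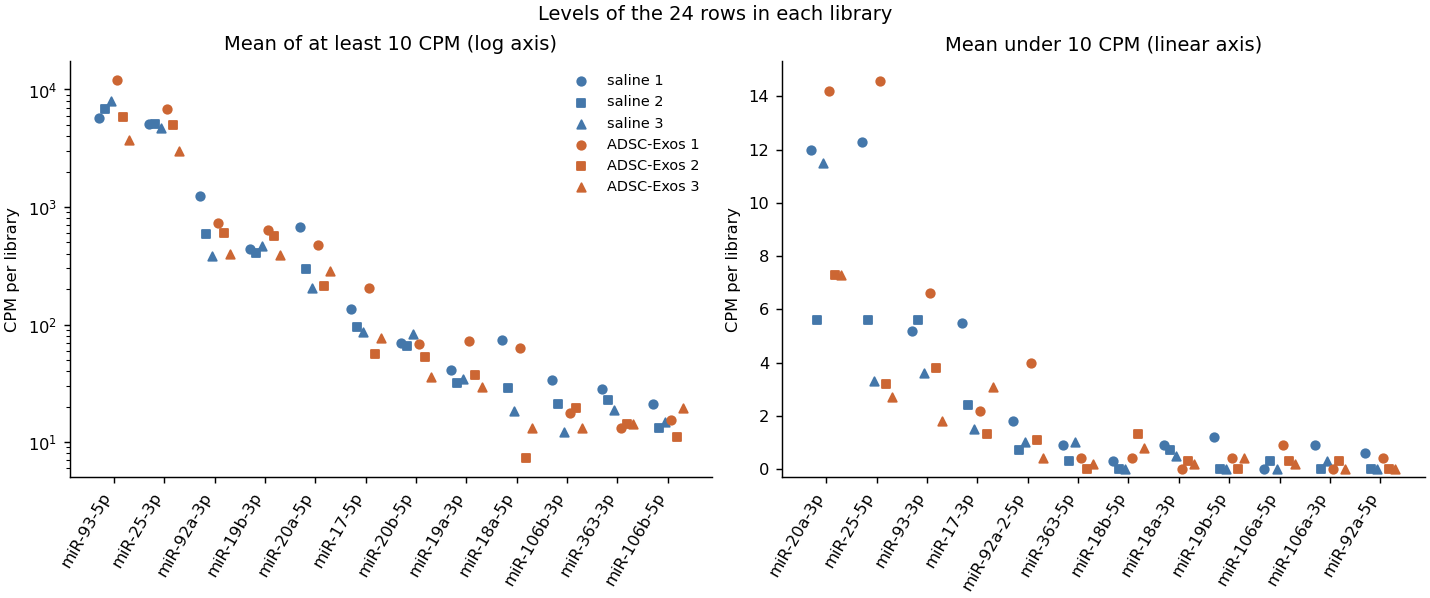
CPM of each of the 24 member rows in the 3 saline and 3 ADSC-Exos libraries, with the 12 rows at a mean of at least 10 CPM on a log axis (left) and the other 12 on a linear axis (right). miR-93-5p and miR-25-3p lie between 2987.0 and 12039.5 CPM and above every value of the other members.

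The miR-17-92 polycistron itself came next, with unequal levels of its products. miR-20a-5p, of the miR-17 family, had 673.6, 295.8 and 204.8 CPM with saline, against 473.3, 211.1 and 287.1 CPM with ADSC-Exos. miR-17-5p, the name-giving member, reached 135.5, 96.0 and 87.2 CPM after saline, while ADSC-Exos libraries had 205.3, 56.1 and 76.6 CPM. miR-20a-5p exceeded miR-17-5p in 6 of 6 libraries, by a ratio of 2.31 to 4.97, and for both the groups overlapped. miR-18a-5p, the miR-18 family member, measured 74.5, 28.9 and 18.4 CPM in the saline libraries and 62.8, 7.3 and 13.3 CPM in the ADSC-Exos libraries. It was high in saline 1 and ADSC-Exos 1 and low elsewhere, and its SD of log2(CPM + 1) over the 6 libraries, 1.24, was the fifth highest of 224 miRNAs. miR-19a-3p, of the miR-19 family, had 41.3, 32.0 and 34.3 CPM with saline, against 72.1, 37.2 and 29.2 CPM with ADSC-Exos, with the single high value in ADSC-Exos 1.

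Of the rows that the miR-17-92 and miR-106a-363 clusters can both give, miR-92a-3p reached 1252.4, 585.6 and 380.6 CPM after saline, while ADSC-Exos libraries had 733.9, 600.8 and 394.7 CPM. miR-19b-3p measured 437.4, 407.8 and 470.4 CPM in the saline libraries and 632.6, 570.9 and 390.6 CPM in the ADSC-Exos libraries. The SD of log2(CPM + 1) of miR-19b-3p over the 6 libraries was 0.28, the smallest of the 12 members with a mean of at least 10 CPM. miR-19b-3p exceeded its family partner miR-19a-3p by a ratio of 8.77 to 15.3. miR-25-3p exceeded miR-92a-3p, which shares its seed, by a ratio of 4.05 in saline 1 and 7.57 to 12.5 in the other libraries.

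The X-linked miR-106a-363 cluster had the lowest summed level, with the miR-19b and miR-92a rows without a copy number kept apart. miR-20b-5p, its miR-17 family member, had 69.3, 65.4 and 83.6 CPM with saline, against 67.7, 53.4 and 35.7 CPM with ADSC-Exos. miR-363-3p, its miR-92 family member, reached 28.3, 23.0 and 18.7 CPM after saline, while ADSC-Exos libraries had 13.3, 14.3 and 14.3 CPM. The miR-363-3p values did not overlap between groups, and those of miR-20b-5p did. miR-106a-5p, which gives the cluster its name, was listed at 0 in saline 1 and saline 3 and reached at most 0.9 CPM, or 2 reads, in ADSC-Exos 1.

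**Figure D2:**
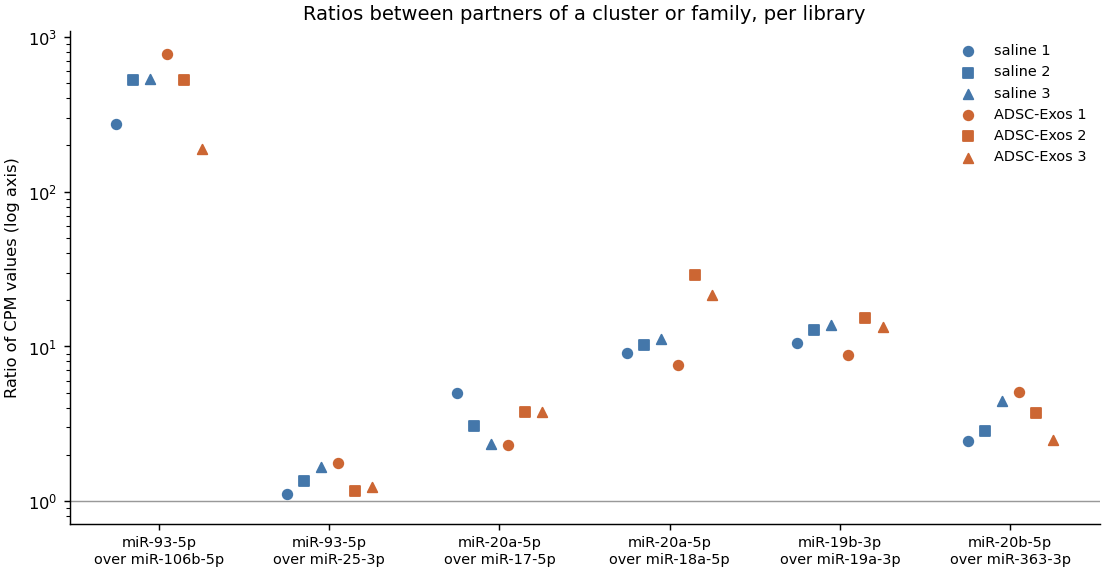
Ratio of the CPM values of 2 members in each library, on a log axis, for partners in the same cluster or seed family, with saline in blue and ADSC-Exos in orange. The ratio of miR-93-5p to miR-106b-5p spans 188 to 777, whereas that of miR-93-5p to miR-25-3p spans 1.12 to 1.77.

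In the order of mean levels miR-93-5p was followed by miR-25-3p, miR-92a-3p, miR-19b-3p, miR-20a-5p, miR-17-5p, miR-20b-5p, miR-19a-3p, miR-18a-5p, miR-106b-3p, miR-363-3p and miR-106b-5p. Only between miR-25-3p and miR-92a-3p did the ranges of neighbours over the 6 libraries lie apart. Within libraries, miR-93-5p against miR-25-3p, miR-20a-5p against miR-17-5p and miR-17-5p against miR-20b-5p also kept their order in 6 of 6. The other neighbours changed places in at least 1 library, and miR-106b-3p exceeded miR-363-3p in 3 of 6.

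The hairpins differed in which arm was retained, the arm being the side of the hairpin that the mature miRNA comes from. Both arms had a row for 10 of the 13 hairpin names. The 5p arm of miR-93 exceeded its 3p arm by a ratio of 1094 to 2202, that of miR-17 by 24.6 to 93.3, and that of miR-20a by 17.8 to 56.1. In the miR-92 family the 3p arm prevailed, with a 3p to 5p ratio of 413 to 1562 for miR-25 and of 167 to 987 for miR-92a with both of its 5p rows summed. For miR-363 the 3p to 5p ratio was 18.7 to 76.7 in the 5 libraries where both arms were above 0. The miR-363 ratios rest on 1 to 4 reads of the minor arm in each library. Other minor arms were low too. The reads were 2 to 9 for miR-92a-2-5p, 0 to 2 for miR-92a-5p, 5 to 18 for miR-17-3p and 9 to 17 for miR-93-3p. The spread of such ratios between libraries therefore includes much counting error. miR-106b was thus the single hairpin with both arms at a mean of at least 10 CPM.

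The remaining 12 rows lay under a mean of 10 CPM and entered no test. miR-20a-3p, just under this level, measured 12.0, 5.6 and 11.5 CPM in the saline libraries and 14.2, 7.3 and 7.3 CPM in the ADSC-Exos libraries. miR-25-5p, the minor arm of miR-25, had 12.3, 5.6 and 3.3 CPM with saline, against 14.6, 3.2 and 2.7 CPM with ADSC-Exos, again high in saline 1 and ADSC-Exos 1. miR-93-3p ranged from 1.8 to 6.6 CPM and miR-17-3p from 1.3 to 5.5 CPM. The other 8, namely miR-92a-2-5p, miR-363-5p, miR-18b-5p, miR-18a-3p, miR-19b-5p, miR-106a-5p, miR-106a-3p and miR-92a-5p, had at most 9 reads in any library. Of these, 7 were listed at 0 in at least 1 library, all but miR-92a-2-5p. miR-18b-5p, the X-linked paralogue of miR-18a, had 1, 0 and 0 reads in saline and 1, 5 and 4 in ADSC-Exos, or 0.3, 0 and 0 CPM against 0.4, 1.3 and 0.8 CPM. miR-18a-3p had 3, 2 and 2 reads in saline and 0, 1 and 1 in ADSC-Exos. Their groups did not overlap, miR-18b-5p being higher and miR-18a-3p lower in ADSC-Exos. Among 243 rows under 10 CPM, 2.47% did so in each direction, and 5 reads or fewer do not allow a fold change to be read.

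Summed by seed, the miR-17 family held 48.5% to 60.4% and the miR-92 family 35.7% to 46.8% of the members' CPM. The miR-19 family held 3.25% to 5.27%, and the miR-18 family 0.0694% to 0.551%. The miR-17 family together reached 6588.8, 7352.6 and 8316.7 CPM after saline, while ADSC-Exos libraries had 12802.2, 6123.7 and 4103.3 CPM. The miR-92 family together measured 6354.5, 5657.8 and 5143.0 CPM in the saline libraries and 7566.1, 5612.9 and 3396.0 CPM in the ADSC-Exos libraries. Within saline the miR-17 family was lowest in saline 1 and the miR-92 family highest there, and in ADSC-Exos both were highest in library 1 and lowest in library 3. The summed CPM of all members was 13704 ± 273 in saline and 13850 ± 6737 in ADSC-Exos (SD, n = 3 each). The means were close, while the spread of the ADSC-Exos libraries was much wider. This closeness rests on ADSC-Exos 1, where the sum was 21196.7 CPM. That library had the fewest miRNA reads, about 2260645, and ADSC-Exos 3, with the lowest sum, had the most, about 5102405. A part of depth in these sums was not tested. ADSC-Exos 2 and ADSC-Exos 3, at 12390 and 7962.4 CPM, both lay below every saline sum, the lowest being 13520.9 CPM. In ADSC-Exos 2, however, miR-93-5p and miR-25-3p, at 5791.7 and 4997.8 CPM, each lay within the range of their saline values. The saline sums lay close together although miR-93-5p was lowest and miR-25-3p highest in saline 1. No direction of the members can be read from these sums.

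The miR-19 family together had 478.7, 439.8 and 504.7 CPM with saline, against 704.7, 608.1 and 419.8 CPM with ADSC-Exos. The miR-18 family had 74.8, 28.9 and 18.4 CPM with saline, against 63.2, 8.6 and 14.1 CPM with ADSC-Exos. The differences of mean log2 sums, ADSC-Exos minus saline, were -0.11 for miR-17, -0.79 for miR-18, 0.25 for miR-19 and -0.12 for miR-92. All 4 families overlapped between groups. Without ADSC-Exos 1 these differences were -0.56, -1.63, 0.093 and -0.38, and without ADSC-Exos 3 they were 0.26, -0.55, 0.47 and 0.19. Sums over members were not tested.

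**Figure D3:**
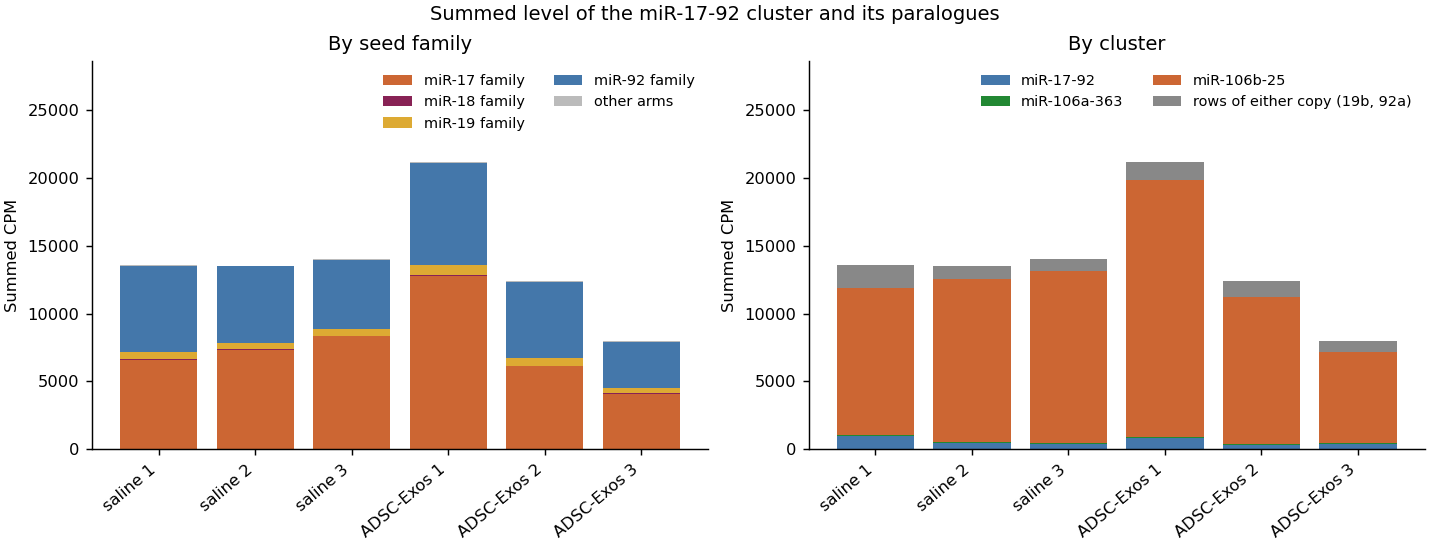
Summed CPM of the members in each library, stacked by seed family (left) and by cluster (right), with rows that 2 clusters can give shown in grey. The total runs from 7962.4 CPM in ADSC-Exos 3 to 21196.7 CPM in ADSC-Exos 1, while the saline libraries lie between 13520.9 and 14017.8 CPM.

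By cluster, the miR-106b-25 rows summed to 11839 ± 942 CPM with saline and 12149 ± 6209 CPM with ADSC-Exos, and the miR-17-92 rows to 588 ± 312 and 522 ± 271 CPM (SD, n = 3 each). The miR-106a-363 rows, mostly miR-20b-5p and miR-363-3p, together had 101.5, 89.7 and 104.6 CPM with saline, against 86.7, 70.7 and 51.6 CPM with ADSC-Exos. This was the single cluster sum without overlap between groups. Of its main rows, miR-363-3p did not overlap either, while miR-20b-5p did. Single miRNAs lay lower without overlap in 3.57% of all tested, and no such share was taken for sums. The difference of mean log2 sums was -0.53, and it ran from -0.70 without ADSC-Exos 1 to -0.33 without ADSC-Exos 3. The corresponding differences were -0.16 for miR-17-92 and -0.088 for miR-106b-25, and both moved in either direction when single libraries were left out. Without ADSC-Exos 1 they were -0.56 and -0.47. The difference was above 0 for miR-17-92 without saline 1, at 0.24, and without ADSC-Exos 2, at 0.13, and for miR-106b-25 without ADSC-Exos 3, at 0.28.

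The comparison of ADSC-Exos with saline asks whether exosome treatment went with a change in these miRNAs at day 21. It was fitted with limma on log2(CPM + 1) over the 224 miRNAs that averaged 10 CPM or more, of which 12 were members. No member passed a Benjamini-Hochberg adjusted p of 0.05 (0 of 12, against 0.0% of all miRNAs tested), and limma's adjusted p was 0.996 for all 12. At an unadjusted p under 0.05 there were also 0 of 12, where 3.57% of all miRNAs tested lay. A limma-voom fit on approximate reads gave 0 of 12 at either threshold. With no filter on low values 2 of 24 members, miR-18a-3p and miR-18b-5p with at most 5 reads each, had an unadjusted p under 0.05 in limma, as did 16 of all 467 miRNAs (3.43%), and 0 passed the adjusted threshold. The members' log2 fold changes were below 0 for 10 and above 0 for 2, with a median of -0.14. Over all miRNAs tested the median was -0.082, and 60.7% were below 0. Under quantile scaling the split of members was 8 and 4, since miR-17-5p and miR-106b-5p turned sign. The 95% intervals of the members reached from 0.68 log2 units to either side for miR-19b-3p to 1.74 for miR-18a-5p, with a median of 0.92, so the size of a difference that could be told from 0 varied between members. In whole tissue, fewer cells of a type and less RNA per cell cannot be told apart.

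Within the miR-17 family all 5 tested members had log2 fold changes below 0, from -0.51 ± 0.35 (SE) for miR-20b-5p to -0.09 for miR-106b-5p. miR-93-5p was at -0.09 ± 0.41 (SE), with a 95% interval from -1.02 to 0.84 and an exact two-sided permutation p of 0.9, where 0.1 is the smallest that 3 against 3 libraries allow. Its value was -0.55 without ADSC-Exos 1 and 0.30 without ADSC-Exos 3. miR-20a-5p was at -0.17 ± 0.48 and miR-17-5p at -0.12 ± 0.48 (SE). These became 0.31 and 0.069 without saline 1 and -0.48 and -0.66 without ADSC-Exos 1, and miR-17-5p became 0.065 under quantile scaling. miR-106b-5p, too, turned sign, to 0.051 under quantile scaling and to 0.097 without saline 1. No direction for this family as a whole can therefore be read from these libraries.

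In the miR-92 family, miR-363-3p had the log2 fold change furthest from 0, -0.68 ± 0.36 (SE). Its 95% interval ran from -1.49 to 0.13, its unadjusted p in limma was 0.0892, and its exact two-sided permutation p was 0.1, the smallest possible. It was the single tested member without overlap between groups, 1 of 12, where 3.57% of all miRNAs tested lay lower without overlap and 4.91% did so in either direction. The fold change stayed below 0, from -0.83 to -0.47, in the 13 alternatives that tested it, all but the filter at a mean of 100 CPM. As the groups did not overlap, leaving out a library could not turn this sign. Nor could the other alternatives, apart from the scalings and limma-voom. miR-92a-3p was at -0.23 ± 0.46 and miR-25-3p at -0.09 ± 0.33 (SE). Without saline 1 miR-92a-3p was at 0.24, and without ADSC-Exos 3 miR-25-3p was at 0.24. Without ADSC-Exos 1 they were at -0.42 and -0.36.

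Markers of red blood cells are given beside miR-363-3p. The 4 tested erythroid rows, both arms of miR-144, which is transcribed with miR-451 in red cell precursors, miR-451-5p and miR-486-5p, all had fold changes below 0, with a median of -1.49. Of these, 0 of 4 passed the adjusted threshold in limma and 4 had an unadjusted p under 0.05, as did 3.57% of all miRNAs tested. miR-451-5p and miR-144-3p, the most abundant by mean, were at -1.71 ± 0.50 and -1.59 ± 0.64 (SE). The summed level of all 5 erythroid rows was 442.9, 563.4 and 852.8 CPM in saline and 471.5, 154.4 and 109.2 CPM in ADSC-Exos, with no row at 0 in every library. In ADSC-Exos 1 this sum lay inside the saline range, while miR-363-3p had its lowest value there. In saline the sum was lowest in saline 1, where miR-363-3p was highest. The part of red cells in the miR-363-3p values was not tested.

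**Figure D4:**
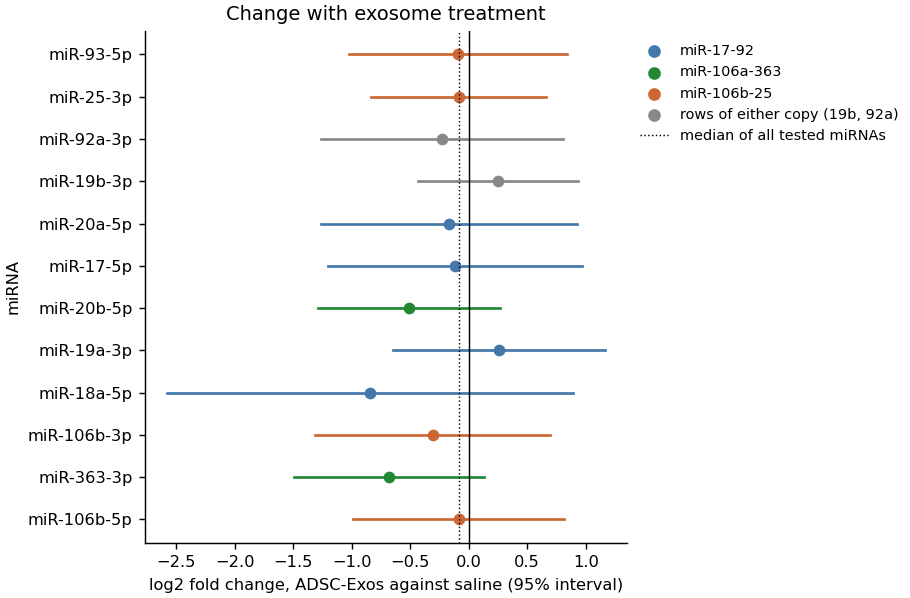
log2 fold change of the 12 tested members, ADSC-Exos against saline, with 95% intervals from limma on log2(CPM + 1), coloured by cluster; the dotted line is the median of all 224 miRNAs tested, -0.082. All 12 intervals include 0, and miR-18a-5p has the widest, from -2.58 to 0.89.

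The miR-18 and miR-19 families bracketed the others. miR-18a-5p was at -0.84 ± 0.77 (SE), with an exact two-sided permutation p of 0.4. Without ADSC-Exos 1 it was at -1.69, where limma's unadjusted p was 0.0139 and its adjusted p 0.218, and without ADSC-Exos 2 it was at -0.22. Its adjusted p over the 13 alternatives that tested it ran from 0.218 to 0.998. miR-19b-3p and miR-19a-3p were the 2 members above 0, at 0.25 ± 0.30 and 0.26 ± 0.40 (SE), and without ADSC-Exos 1 they became 0.11 and -0.11. miR-106b-3p, the tested minor arm, was at -0.31 ± 0.44 (SE) and became 0.038 without saline 1. Without ADSC-Exos 1, 11 of 12 members were below 0 with a median of -0.45, against -0.10 over all miRNAs then tested, and 0 of 12 passed in limma. At an unadjusted p under 0.05 there was then 1 of 12, miR-18a-5p, and 28 over all miRNAs then tested, or 12.6%.

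The members' levels were also compared library by library. Of the 12 tested members, 11 had their highest level in saline 1 or ADSC-Exos 1, as did 55.4% of all miRNAs tested. The exception was miR-20b-5p, highest in saline 3. These are the libraries where members were most often highest, 6 in saline 1 and 5 in ADSC-Exos 1. The count of 11 is therefore a description and no test. Relative to each miRNA's mean over the 6 libraries, the median log2(CPM + 1) of the members was 0.42 in saline 1 and 0.45 in ADSC-Exos 1, against 0.054 and 0.10 for all miRNAs tested. It was 0.012 and -0.12 in saline 2 and 3, against -0.042 and 0.051 for all miRNAs tested. In ADSC-Exos 2 and 3 it was -0.18 and -0.44, against 0.010 and -0.17 for all miRNAs tested. ADSC-Exos 3 held the lowest value of 5 of 12 members and of 35.3% of all miRNAs tested. The members did not share a single pattern. miR-92a-3p, miR-20a-5p, miR-18a-5p, miR-363-3p and both arms of miR-106b were highest in saline 1, while miR-93-5p, miR-25-3p, miR-17-5p and both miR-19 members were highest in ADSC-Exos 1.

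**Figure D5:**
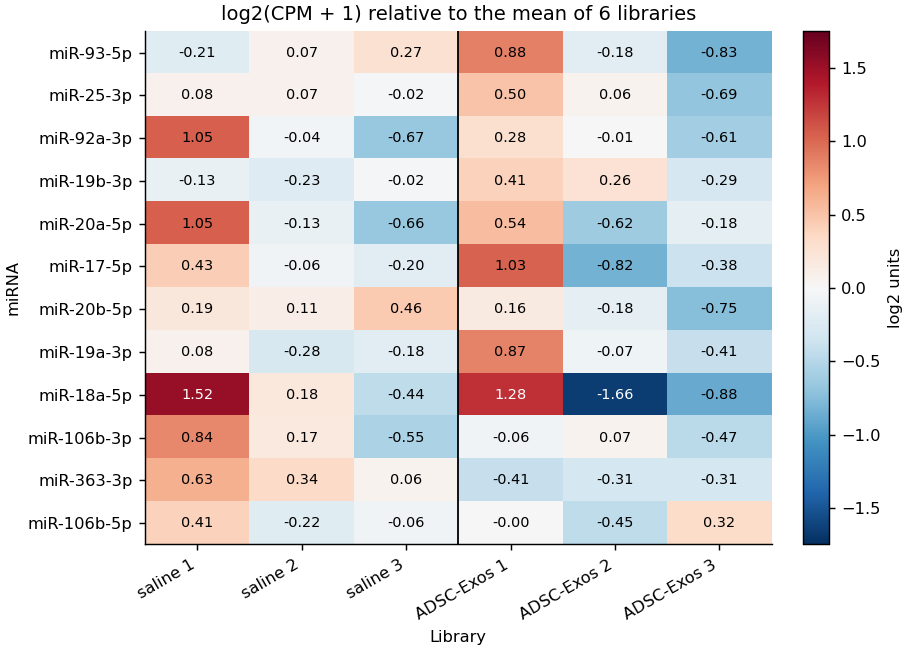
log2(CPM + 1) of the 12 tested members in each library relative to the mean of that miRNA over the 6 libraries, with saline left and ADSC-Exos right of the line. miR-18a-5p spans from 1.52 in saline 1 to -1.66 in ADSC-Exos 2, and miR-363-3p is below its mean in all 3 ADSC-Exos libraries.

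The miRNAs outside these families with the most similar profiles were sought by the root mean square difference of centred log2(CPM + 1) over the 6 libraries. For miR-93-5p these were miR-676-3p, let-7c-3p and miR-425-3p, at 0.095, 0.12 and 0.16 log2 units, where the median over the other miRNAs was 0.58. miR-676-3p reached 869.5, 1112.8 and 1379.1 CPM after saline, while ADSC-Exos libraries had 2034.8, 1049.7 and 557.2 CPM, the same order of the 6 libraries as miR-93-5p. For miR-25-3p they were miR-532-3p, miR-30d-3p and miR-378-5p, at 0.16, 0.17 and 0.21 log2 units. For miR-19b-3p they were miR-7a-5p, miR-200c-3p and miR-331-3p, at 0.14, 0.15 and 0.16. For miR-363-3p they were miR-502a-3p, miR-185-5p and miR-99a-5p, at 0.15, 0.16 and 0.18. The nearest to miR-18a-5p, namely miR-31-5p, miR-6529-5p and miR-183-5p, were at 0.49, 0.53 and 0.54 log2 units, where the median over the other miRNAs was 1.14. Such differences grow with the member's own root mean square deviation, 1.13 for miR-18a-5p against 0.25 for miR-19b-3p. They are therefore not compared between members. These likenesses are over 6 libraries that share their depth and scaling with every miRNA in them.

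Other miRNAs tied to these families by seed or by MYC were also followed. Seed relatives outside the clusters were taken by name with either arm, so that not all of their 4 rows carry a family seed. The 1 tested row was miR-32-5p, which shares the seed of the miR-92 family. It measured 52.7, 38.3 and 48.8 CPM in the saline libraries and 37.6, 41.8 and 46.3 CPM in the ADSC-Exos libraries, with a log2 fold change of -0.14 ± 0.32 (SE). miR-302a-5p and miR-302b-3p, of the pluripotency-linked miR-302 cluster, reached at most 0.8 CPM. Over all miRNAs tested, 88 were above 0 and 136 below, with a median of -0.082, and 3.57% had an unadjusted p under 0.05 in limma. Among 23 tested rows of miRNAs that MYC is known to repress in human and mouse lymphoid cells, 18 were above 0 and 5 below, with a median of 0.10. Of these 23, 0 passed in limma, with 1, miR-29b-3p, at an unadjusted p under 0.05. A part of MYC in this split was not tested. The most abundant of the 23 rows, miR-16b-5p and miR-26a-5p, were at -0.24 ± 0.30 and 0.12 ± 0.32 (SE).

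Markers of other cells are given as background to the members' spread. Of all miRNAs tested, 88 were above 0 and 136 below. Leukocyte rows had 2 tested members above 0 and 5 below, epithelial rows 4 and 2, and cartilage rows 4 and 0. Smooth muscle rows had 0 and 4, skeletal muscle rows 0 and 3 and fibroblast rows 2 and 2. In limma 0 of these marker rows passed, with 1, miR-206-3p, at an unadjusted p under 0.05, where 3.57% of all miRNAs tested lay. The 2 most abundant of each were miR-146a-5p and miR-155-5p, miR-141-3p and miR-205-5p, miR-140-3p and miR-140-5p, miR-143-3p and miR-145-5p, miR-1-3p and miR-206-3p, and miR-199a-3p and miR-199a-5p. In ADSC-Exos 1, where the members' sum was highest, the leukocyte sum was 10115 CPM against 6664 to 10091 CPM in the other libraries, and the epithelial sum 12050 CPM against 7913 to 12297 CPM. The part of these cells in the members' levels was not tested.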

How the data were processed

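Small RNA from 3 saline and 3 ADSC-Exos scar samples was profiled. The authors deposited CPM values for 467 mature miRNAs, given to 1 decimal, and each library sums to about 1000000, so each miRNA is relative to all others in its library. Per the submitters' processing notes the tools were STAR 2.7.6a, DESeq2 1.30.1, HTSeq 2.0.3, Trimmomatic 0.40 and FastQC 1.0.0, whose roles are not named there. The sources used here do not give the genome build, the miRNA annotation or the use of strand. The members and lists were chosen with earlier results of these data known.

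The read total of a library was sought so that values fall within 0.05 CPM of whole reads, with the lowest value as 1 read; 2378 of 2382 values above 0 were whole (99.8%), and such reads are approximate. In ADSC-Exos 3 the best total was 1 of 2 tied.

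limma 3.58.1 (R 4.3.3) was fitted with trend to log2(CPM + 1), filter a mean of at least 10 CPM, group as the only term, two-sided, with Benjamini-Hochberg adjustment over 224 miRNAs. Fold changes on this scale understate those of low miRNAs. Exact permutation tests used all 20 arrangements of 3 against 3. Errors are SD over 3 libraries or SE. The fit was tested on simulated data in which the most abundant miRNAs were held unchanged. A first simulation that let them change gave many more false calls, and the simulation, not the fit, was then altered; why the false calls arose was not tested. All member rows are named; for the most abundant row of each seed family and miR-363-3p the 3 nearest profiles were named, and for each list the 2 most abundant tested rows. miR-144-5p, miR-486-5p, miR-29b-3p, miR-302a-5p and miR-302b-3p were named after their values were seen.

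Alternatives were median-of-ratios and quantile scaling, pseudocounts of 0.1 and 10, no filter, a mean of at least 100 CPM, a replicate block, each library left out with the filter applied anew, and limma-voom on approximate reads, which was chosen after seeing the data. The count test planned for recovered reads was not run, as the reads are approximate.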

Additional observations from a re-analysis of the deposited data

How the results depend on the processing

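The count of 0 members past the adjusted threshold held in all 14 alternatives, and the smallest adjusted p of any member was 0.218 in limma, without ADSC-Exos 1. Over all miRNAs the count was 0 in the alternatives that kept every library and 0 to 4 when a library was left out, with 1 without saline 3 and 4 without ADSC-Exos 1. Of the 12 tested members, 4 kept the sign of the log2 fold change in each alternative that tested them, namely miR-19b-3p above 0 in all 14 and miR-20b-5p, miR-18a-5p and miR-363-3p below 0 in 13, as they lie under the filter at 100 CPM. The filters and the replicate block leave the log2 fold change of a miRNA as it is. For miR-363-3p, whose groups did not overlap, only the scalings and limma-voom could have turned the sign. Quantile scaling turned miR-17-5p to 0.065 and miR-106b-5p to 0.051. When single libraries were left out the log2 fold change ran from -0.55 to 0.30 for miR-93-5p, from -0.36 to 0.24 for miR-25-3p, from -0.62 to 0.24 for miR-92a-3p, from -0.54 to 0.31 for miR-20a-5p, from -0.66 to 0.26 for miR-17-5p, from -0.11 to 0.53 for miR-19a-3p, from -0.66 to 0.038 for miR-106b-3p and from -0.27 to 0.12 for miR-106b-5p; the cause was not tested. The deviations of same-numbered libraries correlated at -0.11, -0.018 and -0.13, and those of differently numbered ones at -0.24 to 0.24. So few pairs cannot show whether the numbers pair the samples. With the replicate block 0 of 12 members and 0 of 224 miRNAs passed. The differences of family and cluster sums moved by less than 1 SD of the replicates under both scalings, the replicate block and each left-out library, the alternatives run on sums. The replicate block cannot move them. Within that limit the sign turned for the miR-17 and miR-92 families without ADSC-Exos 3, at 0.26 and 0.19. It also turned for miR-17-92, miR-106b-25 and the rows that either cluster can give when single libraries were left out. Rows under 10 reads are limited by depth.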
